A study of Mus musculus with 22 samples.

Results

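Transfer RNA (tRNA) is heavily modified, and dedicated enzymes add its chemical changes after transcription. Methyltransferases, pseudouridine synthases and deaminases act on the body of the molecule or on the anticodon loop, and changes at the wobble base and beside the anticodon tune how codons are read. Several of the enzymes work as pairs or complexes, such as Mettl1 with Wdr4, Trmt6 with Trmt61a, Qtrt1 with Qtrt2, Ctu1 with Ctu2, Adat2 with Adat3, and the Elongator subunits. CREB1 is an activator that binds the cAMP response element (CRE), with the letters TGACGTCA, and is phosphorylated by protein kinase A downstream of the vasopressin receptor. C/EBP beta is a leucine zipper factor of stress and acute phase responses.

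The genes described here are 46 tRNA modification enzyme genes, out of 21631 protein-coding genes on the autosomes and X in the RefSeq table used. They were chosen by function, from a list proposed with the peak positions of these data already known, and each was set against the nearest peak. A gene counted as near a peak when the peak centre lay within 5000 bp of either end of the gene on mm10. All 46 symbols were found in that table. Trmt61b is listed there as a long non-coding RNA, so 45 of the 46 are protein-coding.

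Sites were mapped by ChIP-seq in mpkCCD cells, clone 11, a single clone of a mouse cortical collecting duct line. Confluent cells on permeable supports were kept for 24 h without serum or hormones and then given 0.1 nM dDAVP, an agonist of the vasopressin V2 receptor, or its vehicle for 30 min. CREB1 was precipitated from 4 dDAVP and 4 vehicle samples, and C/EBP beta from 2 dDAVP and 2 vehicle samples, with 10 input samples beside them. Peaks were deposited as 1 list per factor and treatment, with 406 peaks for CREB1 after dDAVP, 785 for CREB1 after vehicle, 2401 for C/EBP beta after dDAVP and 209 for C/EBP beta after vehicle. There is therefore no value per replicate, no replicate error and no test of the treatment. Read depth is unknown, the lists hold no expression with which to check cell type markers, and the want of a peak in a list means only that none was called. The labels tell replicates apart by an experiment number alone. By their labels, 2 of the 10 inputs, 1 per treatment, were shared by a CREB1 and a C/EBP beta experiment.

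The sequences below lie under the peaks that the results turn on. Each is 30 bases of the RefSeq promoter table (build GRCm38.p6), written 5′ to 3′ in the direction of the gene, and positions count the annotated first base of the transcript as 0. Capitals mark the full CRE in the first 4 sequences. The first 3 lie under CREB1 vehicle peaks, at Trmt5 (chr12:73286716-73286745, minus strand), Trmt61a (chr12:111678074-111678103, plus strand) and Tyw1 (chr5:130255594-130255623, plus strand). The fourth, at Pus10 (chr11:23665948-23665977, plus strand), is shown as the contrast, a full CRE with no CREB1 peak within 50000 bp of either gene end.
Trmt5: gccagcagtgaTGACGTCAccagcctccga
Trmt61a: ctgcgttggttTGACGTCAtcaaaaagcac
Tyw1: tcgttctgtgaTGACGTCAtttacaggcgc
Pus10: ccgcccacgccTGACGTCAggccaaggcgt

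The next 4 sequences show the shorter CRE core, TGACG on either strand, in capitals where no full CRE was found. They are at Trmt10a (chr3:138143430-138143459, plus strand), Mettl1 (chr10:127041918-127041947, plus strand), Trmt44 (chr5:35575057-35575086, minus strand) and Nsun6 (chr2:15049307-15049336, minus strand). In Mettl1 and Trmt44 the core reads on the opposite strand, as CGTCA.
Trmt10a: agcgcagtccgaTGACGtaagccgtaagtg
Mettl1: gtccgcgggctgCGTCAtcacctcgcgccg
Trmt44: gcttccgggtcgCGTCAtcccaacgcgccg
Nsun6: gagtgccggaagTGACGaacccaggaagcg

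The last pair comes from Qtrt2, the single member at which peaks of both factors were found. Capitals mark a match to the C/EBP letters TTGCNNAA in the first (chr16:43889707-43889736, minus strand) and the TGACG core in the second (chr16:43889684-43889713, minus strand).
Qtrt2 C/EBP letters: tagcagggcctTTGCGTAAttctggcgctt
Qtrt2 CRE core: ggcgcttggtgaTGACGcagaaattccgga

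After dDAVP, 11 of the 46 genes (23.9%) had a CREB1 peak within 5000 bp of a gene end, beside 2.67% of all protein-coding genes. After vehicle, 14 of 46 (30.4%) had a CREB1 peak, beside 5.05% of all protein-coding genes. In the C/EBP beta dDAVP list 2 of 46 (4.35%), Qtrt2 and Ftsj1, had a peak, beside 5.01% of all protein-coding genes. In the C/EBP beta vehicle list 0 of 46 had a peak, beside 0.513% of all protein-coding genes. Among the 45 protein-coding members the counts were 10 (22.2%) and 13 (28.9%) for CREB1 after dDAVP and vehicle, and 2 (4.44%) and 0 for C/EBP beta. When each peak was given only to the gene with the nearest end, the CREB1 counts were 7 after dDAVP and 9 after vehicle. By that rule the shares over all protein-coding genes were 1.79% and 3.43%. Ctu2, Elp5, Mettl1 and Trmt5 left both counts, and Trmt10c left the vehicle count. Since peak positions were known when the list was proposed, these shares describe the genes and are no test.

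Most of the CREB1 peaks counted were within 1000 bp of the gene end. At that distance, 10 of 46 (21.7%) had a CREB1 peak after dDAVP and 13 of 46 (28.3%) after vehicle, beside 2.11% and 3.94% of all protein-coding genes. C/EBP beta gave 2 of 46 within 1000 bp after dDAVP and 0 after vehicle, beside 2.51% and 0.254%. Within 50000 bp the CREB1 counts were 14 (30.4%) after dDAVP and 21 (45.7%) after vehicle, beside 6.97% and 12.5%. For C/EBP beta they were 12 (26.1%) after dDAVP and 0 after vehicle, beside 18.9% and 1.96%.

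**Figure D1:**
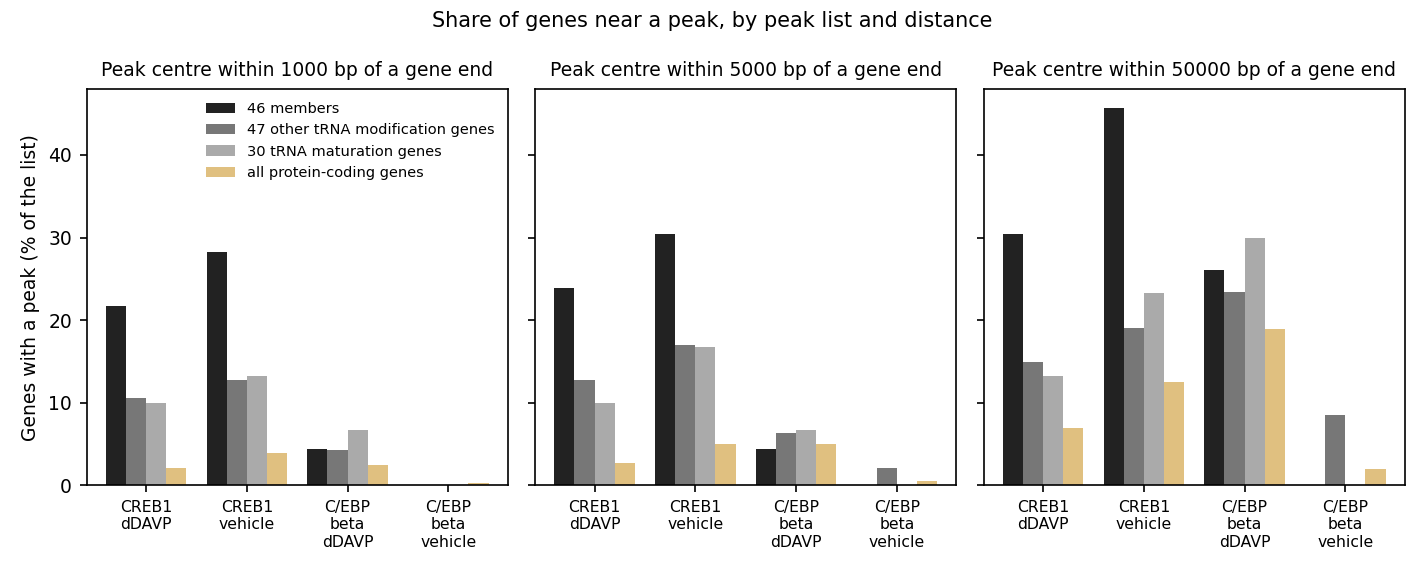
Bars give the percentage of genes with a peak centre within 1000, 5000 or 50000 bp of a gene end (y axis), for the 4 deposited peak lists (x axis). Colours separate the 46 members, 47 other tRNA modification genes, 30 tRNA maturation genes and all protein-coding genes; within 5000 bp the members stand at 23.9% and 30.4% in the CREB1 dDAVP and vehicle lists, and all protein-coding genes at 2.67% and 5.05%.

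All 11 members near a CREB1 peak after dDAVP also had one after vehicle, and at each of the 11 a dDAVP peak overlapped a vehicle peak. Trmt12, Trmt112 and Trmt10c had a CREB1 peak in the vehicle list and none within 50000 bp in the dDAVP list. No member had a CREB1 peak in the dDAVP list alone. Over the whole list, 398 of the 406 CREB1 dDAVP peaks overlapped a vehicle peak, so the overlap is not particular to the members. Of all protein-coding genes, 577 were near a CREB1 peak after dDAVP and 1092 after vehicle. The dDAVP list is the shorter of the CREB1 lists, so a loss of binding at the 3 genes cannot be told apart from the difference in list size.

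**Figure D2:**
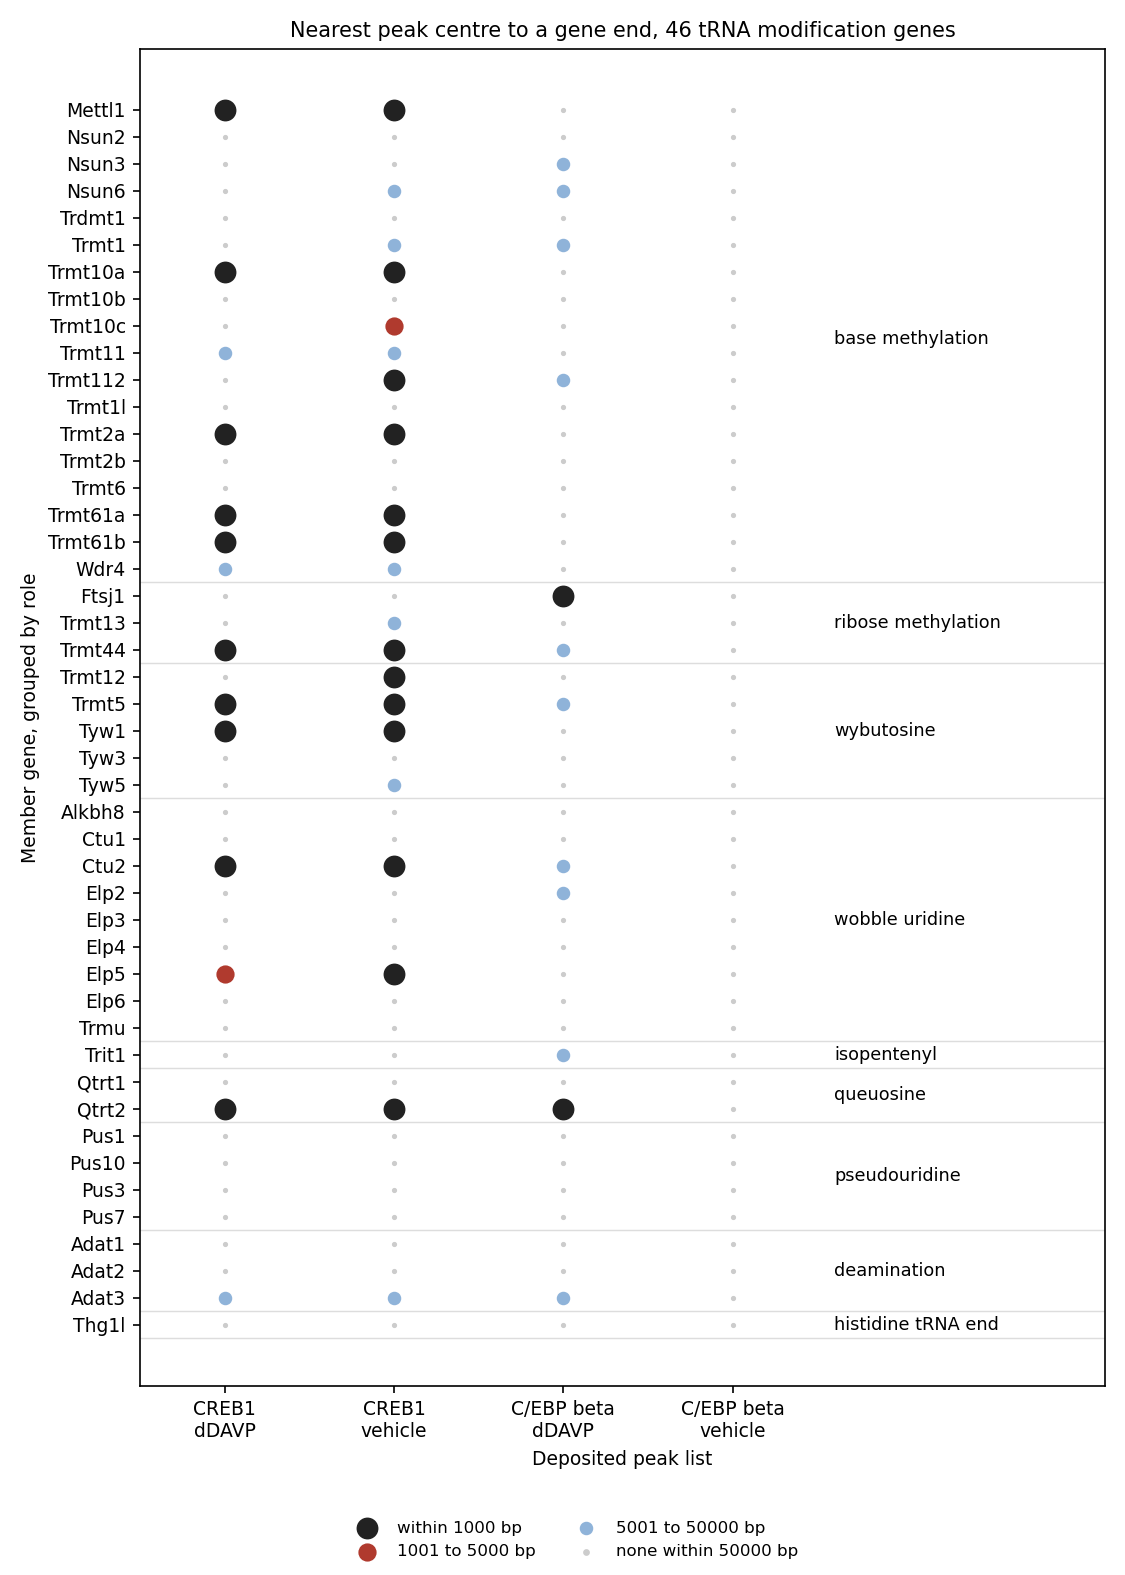
Each row is a member gene, grouped by the role of its enzyme, and each column is a deposited peak list; the size and colour of a dot give the distance from the nearest peak centre to a gene end in 3 classes, and a grey point means none within 50000 bp. The CREB1 columns hold most of the large dots, and the C/EBP beta vehicle column holds none.

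Among the base methylating enzymes, 5 of 18 genes had a CREB1 peak near a gene end after dDAVP and 7 of 18 after vehicle. These counts stand beside 2.67% and 5.05% of all protein-coding genes. Trmt61a encodes the catalytic partner of Trmt6, a pair that methylates adenosine in the T loop. Its CREB1 peak was centred 7 bp from an end of the gene after dDAVP and 3 bp after vehicle. The full CRE printed above begins 20 bases before the start and lay 10 bp from the dDAVP peak centre and 20 bp from the vehicle peak centre. Trmt6 itself had no peak of either factor within 50000 bp. Trmt61b, whose human counterpart methylates adenosine in mitochondrial tRNA, had a CREB1 peak centred 50 bp outside the gene after dDAVP and 27 bp after vehicle. The peaks of both lists covered its annotated start.

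Trmt10a, which methylates guanosine in cytosolic tRNA, had a CREB1 peak of 344 bp after dDAVP, place 48 of 406 by width, and of 600 bp after vehicle, place 3 of 785 and the widest CREB1 vehicle peak within 5000 bp of an end of a member. The dDAVP peak ran from 138143263 to 138143606 on chromosome 3 and the vehicle peak from 138143255 to 138143854. Their outer edges were 8 bp apart, and the vehicle peak reached farther into the gene, where RefSeq places a further start. The printed TGACG core lay 10 bp from the dDAVP centre and 110 bp from the vehicle centre. An end of Mttp, which encodes the microsomal triglyceride transfer protein, lay 16 bp from the dDAVP centre and 136 bp from the vehicle centre.

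Its paralogs differed in the lists. Trmt10b had no peak within 50000 bp in any list. Trmt10c, a mitochondrial methyltransferase that is also a subunit of mitochondrial RNase P, had a vehicle peak 3931 bp from a gene end, the farthest of the 14. That end was not its annotated start, from which the peak centre lay 7997 bp away, and an end of Pcnp was 62 bp from the same peak centre. Without Trmt10c every member in the CREB1 vehicle list had a peak within 1000 bp.

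Mettl1 and Wdr4 encode the catalytic and the supporting subunit of a complex that methylates guanosine in the variable loop, and CREB1 peaks lay at annotated starts of both. At Mettl1 the peak centre was 404 bp inside the gene after dDAVP and 410 bp after vehicle, and 21 and 27 bp past an annotated start. The nearest gene end to these peaks belonged to Eef1akmt3, at 61 bp after dDAVP and 55 bp after vehicle. At Wdr4 the peak centre was 7648 bp from an end of the gene after dDAVP and 7651 bp after vehicle, which is outside the 5000 bp limit. It was 150 bp and 153 bp past an annotated start of Wdr4 inside the gene, and the vehicle peak covered that start. No TGACG core was found in the Wdr4 windows. These hold only 50 bases from the start on, so the letters at the peak centres were not read.

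Trmt2a, a uridine methyltransferase, had a CREB1 peak 97 bp from an end of the gene after dDAVP and 118 bp after vehicle. An end of Ranbp1, a regulator of the Ran GTPase, lay 250 bp and 271 bp from the same centres. Trmt112, a small activating partner of several methyltransferases, had a vehicle peak of 229 bp, place 619 of 785 by width and the narrowest CREB1 vehicle peak within 5000 bp of an end of a member. Its centre was 89 bp inside the gene, and an end of Prdx5 lay 319 bp away. Peaks covered an annotated start of both Trmt2a and Trmt112, and neither held a TGACG core in the promoter windows. The windows hold only 50 bases from the start on. Peak centres lay 61 bp (dDAVP) and 82 bp (vehicle) past the start at Trmt2a, and 89 bp (vehicle) at Trmt112. The letters at the centres were therefore not read.

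Nsun6, a cytosine methyltransferase, fell just outside the limit at 5827 bp in the vehicle list, yet its peak centre was 5 bp before an annotated start inside the gene. Together with Wdr4 it marks the outer side of the 5000 bp limit, and Trmt10c marks the inner side. Nsun2, Nsun3, Trdmt1, Trmt1, Trmt1l, Trmt2b and Trmt11 had no peak within 5000 bp in any list.

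Of the ribose methyltransferases, Trmt44 had CREB1 peaks and Ftsj1 a C/EBP beta peak. The Trmt44 peak was centred 9 bp from an end of the gene after dDAVP and 7 bp after vehicle, with widths of 301 bp and 319 bp, and no end of another protein-coding gene lay within 5000 bp. Its yeast counterpart methylates a uridine ribose in serine tRNA. Ftsj1 methylates riboses of the anticodon loop. Its C/EBP beta dDAVP peak lay on chromosome X from 8252657 to 8252879, outside the gene and centred 362 bp before the annotated start. The authors' deposited score for it was 209, place 1114 of 2401, near the list median of 197. The Ftsj1 promoter window shared no base with this peak. The C/EBP letters found in the window therefore lay outside the peak, and the sequence under the peak was not read.

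Wybutosine, the bulky base beside the anticodon of phenylalanine tRNA, is built in steps by Trmt5, Tyw1, Trmt12, Tyw3 and Tyw5 with other enzymes. The first 3 of these had CREB1 peaks. Trmt5, which methylates the guanosine that is then rebuilt, had a peak centred 20 bp before an annotated start after dDAVP and 9 bp before it after vehicle. Its full CRE lay 1 bp from the dDAVP centre and 10 bp from the vehicle centre. An end of Slc38a6, an amino acid transporter gene on the opposite strand, was 8 bp and 19 bp from these centres.

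Tyw1, which forms the ring system, had a CREB1 dDAVP peak of 75 bp, place 405 of 406 by width, and a vehicle peak of 311 bp. The dDAVP peak ended before the start in the promoter table and did not contain the whole CRE, while the vehicle peak contained it 4 bp from its centre. Trmt12, which adds the side chain, had a vehicle peak of 273 bp centred 18 bp from a gene end, with no end of another protein-coding gene within 5000 bp. Tyw3 had no peak within 50000 bp in any list. The nearest peak to Tyw5 was a CREB1 vehicle peak 10660 bp away, at an end of 1700066M21Rik.

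Among the enzymes of the wobble uridine, 2 of 9 genes had a CREB1 peak in each treatment. Of all protein-coding genes, 2.67% had one after dDAVP and 5.05% after vehicle. Ctu2, which with Ctu1 adds sulfur to the wobble uridine, had a peak of 347 bp after dDAVP, place 46 of 406 by width, and of 350 bp after vehicle, place 200 of 785. The peak was centred 26 bp past the annotated start after dDAVP and 23 bp after vehicle, and 4 TGACG cores lay within it. An end of Rnf166 was 95 bp and 92 bp away. Ctu1 had no peak within 50000 bp.

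Elp5, an accessory subunit of Elongator, was the sole member with a pair of separate CREB1 vehicle peaks near a gene end. The one found in both lists was centred 34 bp past an annotated start after dDAVP and 24 bp after vehicle. The other was in the vehicle list alone, spanned 281 bp, and lay 136 bp beyond the edge of the dDAVP peak. Its centre was 484 bp from an end of Ctdnep1, a nuclear envelope phosphatase gene, and 763 bp from an end of Elp5. Elp3, Elp4, Elp6, Alkbh8 and Trmu had no peak within 50000 bp, and Elp2 had none within 5000 bp.

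Qtrt2 encodes the partner subunit of Qtrt1 in the transglycosylase that places queuine in the anticodon. Its CREB1 peak spanned 252 bp after dDAVP and 356 bp after vehicle, with centres 2 bp apart. The C/EBP beta dDAVP peak spanned 360 bp, from 43889541 to 43889900 on chromosome 16, and contained all 252 bp of the CREB1 dDAVP peak. Its deposited score was 883, place 174 of 2401. The C/EBP letters printed above lay 1 bp from the C/EBP beta centre, and the CRE core lay 13 bp from the CREB1 dDAVP centre and 15 bp from the CREB1 vehicle centre. No C/EBP beta vehicle peak lay within 50000 bp of Qtrt2. An end of Ccdc191 was 89 bp from the C/EBP beta centre. Qtrt1 had no peak within 50000 bp.

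The remaining roles had no member near a peak. The pseudouridine synthases Pus1, Pus3, Pus7 and Pus10 had none within 50000 bp in any list. The full CRE of Pus10 begins 33 bases before an annotated start inside the gene. A full CRE without a peak was common: 445 protein-coding genes held it in a window, and 171 in a window under a CREB1 vehicle peak. Adat1 and Adat2 of the deaminases and Thg1l, which adds the extra guanosine to histidine tRNA, likewise had no peak within 50000 bp. For Trit1, the isopentenyl transferase, the nearest was a C/EBP beta dDAVP peak inside the gene, 9983 bp from an end, with a score of 78.

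**Figure D3:**
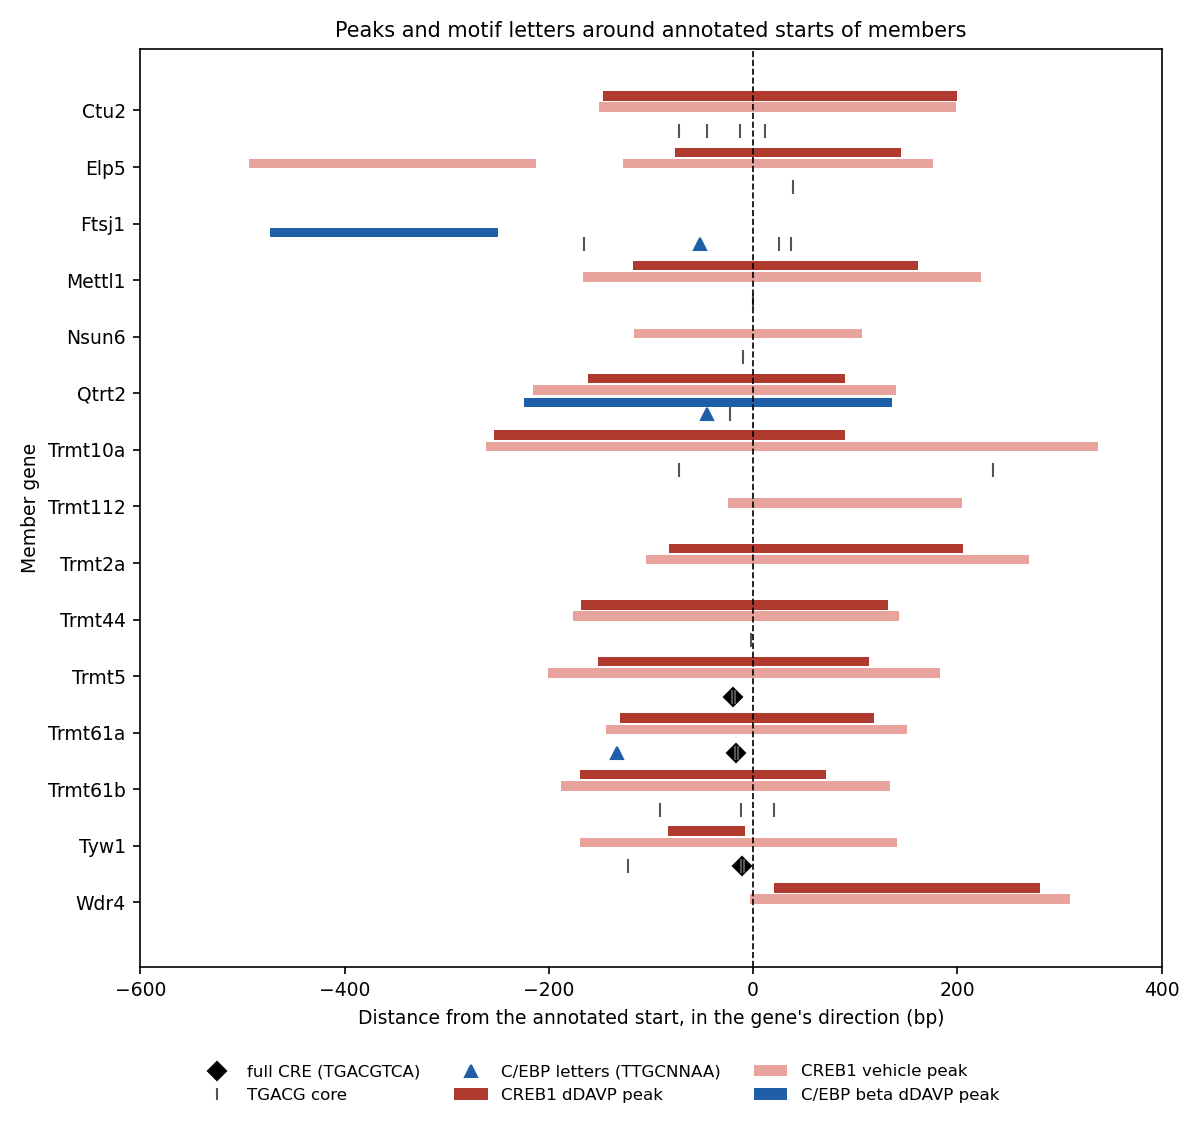
Horizontal bars give the extent of each peak whose centre lies within 400 bp of an annotated start of a member (x axis, bp in the direction of the gene, with the start nearest to the CREB1 vehicle peak at 0); the y axis lists the genes. Symbols below the bars mark letters found in the promoter windows, which reach from 250 bases before each annotated start to 50 from it on; the CREB1 peaks cross the dashed line apart from the dDAVP peaks of Tyw1 and Wdr4 and the second vehicle peak of Elp5, and the C/EBP beta dDAVP peak of Qtrt2 contains the CREB1 dDAVP peak and overlaps 352 of the 356 bp of the CREB1 vehicle peak.

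Set against annotated starts instead of gene ends, CREB1 peaks covered a start of 10 of 40 members (25.0%) after dDAVP and 14 of 40 (35.0%) after vehicle, the 40 being those with a promoter entry. The shares over protein-coding genes with an entry were 1.81% and 3.32%. Wdr4 and Nsun6 enter this vehicle count, and Trmt10c and Trmt12 do not, the last for want of a promoter entry. C/EBP beta peaks covered a start of 1 of 40 members after dDAVP, Qtrt2, and of 0 after vehicle, beside 0.926% and 0.104%.

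The full CRE, which reads alike on both strands, stood in the promoter window of 3 of the 14 members with a window that a vehicle peak overlapped (21.4%). Over all protein-coding genes with such a window it stood in 171 of 706 (24.2%), and over all protein-coding genes with any window in 2.58%. The core TGACG, which the full CRE contains, stood in 11 of the 14 (78.6%), against 610 of 706 (86.4%) and 26.5%. The others were Trmt2a, Trmt112 and Wdr4. Their vehicle peak centres lay 82, 89 and 153 bp past the start, beyond the end of the windows, so the letters there were not read. Among the 26 members with no window under a vehicle peak, 9 (34.6%) held the core and 1 (3.85%), Pus10, the full CRE. In those 11 members the core nearest to the vehicle peak centre was 3 to 27 bp from it, apart from Trmt10a at 110 bp. The windows under vehicle peaks held a median of 25 CG pairs in members and in protein-coding genes, and the other member windows a median of 19. Over all windows the medians were 21 in members and 13 in protein-coding genes. The shares set beside the members were not adjusted for this difference.

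The C/EBP letters TTGCNNAA, on either strand, stood in windows of 5 of 40 members (12.5%), which were Elp4, Ftsj1, Pus7, Qtrt2 and Trmt61a, and of 11.8% of protein-coding genes. Qtrt2 was the one member with a window under a C/EBP beta dDAVP peak, and 37.1% of protein-coding genes with such a window held the letters. The composite letters TGATGNAA, of a C/EBP and ATF element, stood in the window of Pus7 alone among members, and in 3.95% of protein-coding genes. These matches are literal and say nothing of binding.

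At the 11 members in both CREB1 lists the dDAVP peak was always the narrower. Median widths were 265 bp after dDAVP and 350 bp after vehicle, and the ratio of dDAVP to vehicle width had a median of 0.733. It ran from 0.241 at Tyw1 to 0.991 at Ctu2, with 0.944 at Trmt44 and 0.573 at Trmt10a. Over all shared CREB1 peaks, 392 of 398 were narrower after dDAVP and the median ratio was 0.749. Centres moved by a median of 10 bp at members and of 15 bp over all shared peaks.

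**Figure D4:**
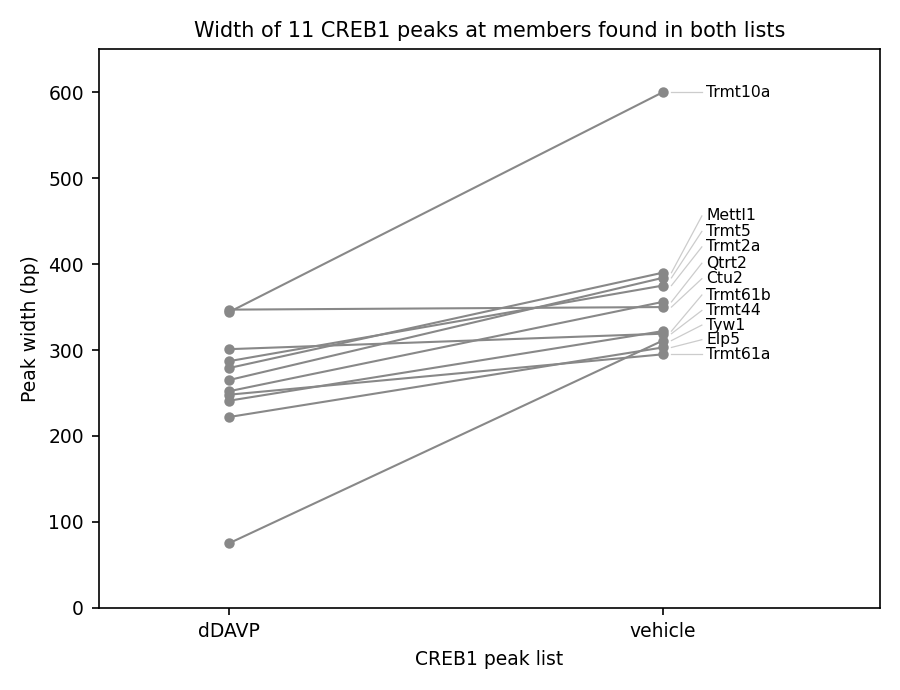
Each line joins the width in bp (y axis, from 0) of a CREB1 peak at a member in the dDAVP list and of the overlapping peak in the vehicle list, for the 11 members in both lists. All 11 lines are higher on the vehicle side, with Trmt10a at 344 and 600 bp, Tyw1 at 75 and 311 bp and Ctu2 nearly level at 347 and 350 bp.

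Many of these peaks also had an end of a neighbouring gene nearby, and which of the genes a site serves was not tested. Of the protein-coding members within 1000 bp of a CREB1 peak, 7 of 9 after dDAVP and 9 of 12 after vehicle shared that peak with an end of another protein-coding gene within 1000 bp. Over all genes within 1000 bp of a CREB1 peak the shares were 44.4% after dDAVP and 41.3% after vehicle. The 9 were Ctu2, Elp5, Mettl1, Qtrt2, Trmt10a, Trmt112, Trmt2a, Trmt5 and Tyw1, the last beside Sbds, a ribosome maturation gene whose end was 43 bp from the dDAVP centre and 74 bp from the vehicle centre. Trmt12, Trmt44 and Trmt61a did not share theirs.

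Beyond 5000 bp and up to 50000 bp, another protein-coding gene was nearer to the peak in 2 of 3 pairs of member and peak for CREB1 after dDAVP, 8 of 10 for CREB1 after vehicle and 10 of 12 for C/EBP beta after dDAVP. The site nearest to Adat3, the partner subunit of the wobble adenosine deaminase, lay by Csnk1g2. It was 14441 bp away for CREB1 after dDAVP, 14634 bp for CREB1 after vehicle and 14474 bp for C/EBP beta after dDAVP. The dDAVP peaks of the 2 factors there overlapped by 335 bp, and the C/EBP beta peak scored 1096, place 121 of 2401. Trmt1 had a C/EBP beta dDAVP peak at 24573 bp and a CREB1 vehicle peak at 23437 bp, 420 bp and 35 bp from an end of Ier2. Trmt11 had CREB1 peaks at 16398 bp after dDAVP and 16385 bp after vehicle, and Trmt13 one at 48056 bp after vehicle, beside Mfsd14a. Further CREB1 vehicle peaks lay 12174 bp from Trmt12, 30127 bp from Trmt61b and 46538 bp from Elp5. The other C/EBP beta dDAVP peaks in this range were 27748 bp from Nsun3, 29111 bp from Nsun6, 10989 bp from Trmt112, 12289 bp from Ctu2, 14573 bp from Elp2, 24434 bp from Trmt44 and 39887 bp from Trmt5, with second ones 26242 bp from Trmt1 and 48827 bp from Trmt112.

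A second list held 47 further genes filed under tRNA modification, some of which, such as Rtraf, are not modification enzymes. CREB1 peaks were near 6 of 47 after dDAVP (12.8%) and 8 of 47 after vehicle (17.0%). The shares over all protein-coding genes were 2.67% and 5.05%. The dihydrouridine synthase genes Dus2 (36 bp and 6 bp after dDAVP and vehicle) and Dus4l (45 bp and 27 bp) had peaks in both lists, as did Dph3 (46 bp and 42 bp), which Elongator needs in yeast. Rpusd2 (4 bp and 7 bp) and Nat10 (1667 bp and 1633 bp), the tRNA cytidine acetyltransferase, also had peaks in both lists. Rtraf, 96 bp away, and Thumpd1, the adaptor of Nat10, 2797 bp away, had a peak in the vehicle list alone.

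C/EBP beta peaks in this second list were near 3 of 47 after dDAVP (6.38%) and 1 of 47 after vehicle (2.13%). The shares over all protein-coding genes were 5.01% and 0.513%. Nsun4, known for methylating mitochondrial ribosomal RNA, had a dDAVP peak 368 bp from a gene end with a score of 284. Dus3l had one at 569 bp with a score of 252. Rpusd2 had a C/EBP beta peak in both lists, 4665 bp away after dDAVP and 4704 bp after vehicle, with scores of 1191 and 62. That site lay 256 bp and 217 bp from an end of Knl1, and 11767 bp from the CREB1 dDAVP peak at Rpusd2.

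In a further list, of 30 genes that cut, join, cap or carry tRNA, CREB1 peaks were near 3 after dDAVP (10.0%) and 5 after vehicle (16.7%). Over all protein-coding genes the shares were 2.67% and 5.05%. Trnt1, which adds the CCA end, had peaks at 4 bp after dDAVP and 23 bp after vehicle. The RNase P subunit genes Pop4 (32 bp and 15 bp) and Rpp14 (12 bp in both) also had peaks in both lists, and Rpp14 shared its end with Htd2. Rpp38 at 298 bp and Tsen34, a splicing endonuclease subunit gene, at 2965 bp were in the vehicle list alone, and the Tsen34 peak was 46 bp from an end of Rps9. C/EBP beta dDAVP peaks were near Xpot, the tRNA exporter (510 bp, score 153), and Ptrh2, a peptidyl-tRNA hydrolase (855 bp, score 113). These are 2 of 30 (6.67%), beside 5.01% of all protein-coding genes, and both scores were below the list median of 197. The C/EBP beta vehicle list had 0 of 30, beside 0.513% of all protein-coding genes.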

How the data were processed

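Peaks were deposited by the authors as 4 files, a single one for each factor and treatment. The submitters' processing notes name mm10, MACS2, bedtools, SAMtools and BWA without versions or roles, and how replicates were combined is not given in the sources used here. Peak names in the C/EBP beta lists are those of replicate 1 and include the tags bw300, dup1 and q0.01. The score in those lists is the authors' deposited value per peak, with no stated scale, and was used only to rank peaks within a list. CREB1 lists hold positions alone.

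Positions count from 1. The peak centre was set against the ends of genes in a RefSeq table of the same assembly, and against the starts in a RefSeq promoter table of 300 bases per start, which matched 40 of the 46 members. Motifs were matched literally on both strands. Distance and motif functions were tested on simulated data. Python 3.11.15 and pandas 2.3.3 were used.

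The members and lists were chosen with earlier results of these data known, so no enrichment test was run. Named were all genes of the 3 lists with a peak within 5000 bp and members with one within 50000 bp. The values of 1 gene outside the members are not reported here. Comparison of member proteins was left out, since no protein sequences were used here. Alternatives are given at the end.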

Additional observations from a re-analysis of the deposited data

How the results depend on the processing

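Of 58 alternative counts, 49 stayed within 1.5 times the value reported. The 49 include counts of 0 that stayed 0, among them all those of members in the C/EBP beta vehicle list. They also include the rise from 14 to 21 members near a CREB1 vehicle peak when the limit was 50000 bp. With a peak given to its nearest gene alone, 7 members stayed near a CREB1 peak after dDAVP and 9 after vehicle, beside 1.79% and 3.43% of protein-coding genes, and Ctu2, Elp5, Mettl1 and Trmt5 left both counts and Trmt10c the vehicle count. With CREB1 peaks of at least the median width, 7 members stayed after dDAVP, beside 1.35%. Within 50000 bp, C/EBP beta dDAVP peaks were near 12 of 46 members (26.1%), beside 18.9% of all protein-coding genes. They were near 11 of 47 other modification genes (23.4%) and 9 of 30 maturation genes (30%). C/EBP beta vehicle peaks were near 4 of 47 other modification genes (8.51%), beside 1.96% of all protein-coding genes. Within 1000 bp that last count was 0, beside 0.254%. The core TGACG gave 11 members with a match under a CREB1 vehicle peak in place of 3. Each symbol had 1 gene model, so the choice between models was not run. No paired analysis was possible because the lists hold no values per replicate, and leaving out a replicate was not run for the same reason. Depth is unknown and limits every absence of a peak.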
